A study of Rattus norvegicus with 15 samples.

Results

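The RNA of 10 genes for the uptake, binding and activation of long-chain fatty acids was measured in the small intestine of rats after gastric bypass, with 17 array probes: Fabp1, Fabp2, Cd36, Slc27a2, Slc27a4, Acsl1, Acsl3, Acsl5, Acbd3 and Dbi. The members were chosen by name, as all probes outside the array's controls whose gene name is one of these 10, among 41012 probes and 17338 gene symbols in all. The array holds 1 probe each for Fabp2, Cd36, Acsl3, Acsl5 and Acbd3, 2 each for Fabp1, Slc27a2, Slc27a4 and Dbi, and 4 for Acsl1.

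The study compared 3 groups of 5 male rats, with 1 single-dye array for each rat. Wistar rats, which are not diabetic, had no operation. GK-Sham-PF rats are Goto-Kakizaki (GK) rats, a nonobese strain with inherited diabetes that was bred from Wistar rats. They were cut and rejoined 16 cm from the ligament of Treitz at 16 wk of age. Their food was restricted to the lowest mean intake among the surgical groups of the study, usually that of a bypassed group not measured here. GK-S-30 rats are GK rats that had Roux-en-Y gastric bypass at 16 wk of age with a Roux limb (RL), the piece of jejunum joined to the gastric pouch, of 30 cm. The sample records name this group GK-S. Tissue was taken at 14 wk postoperation, after an overnight fast, from the RL of GK-S-30 rats and from the matching stretch of jejunum in the others. Every GK rat here had an operation, and the GK-Sham-PF rats also had restricted food. Strain, surgery and food restriction therefore cannot be told apart between GK-Sham-PF and Wistar, and the effect of the bypass is read from both GK groups. Food of the GK-Sham-PF rats was not set by that of GK-S-30 alone, so intake may also differ between the GK groups.

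Dietary fat is split in the lumen into fatty acids and monoacylglycerol, which enterocytes take up, activate to acyl-CoA and rebuild into triacylglycerol for chylomicrons. Cd36 is a membrane receptor for fatty acids, and Slc27a2 and Slc27a4 are fatty acid transport proteins that also have acyl-CoA synthetase activity. Acsl1, Acsl3 and Acsl5 are long-chain acyl-CoA synthetases. Fabp1 and Fabp2 are the liver and intestinal forms of the small proteins that bind fatty acids in the cytosol, Dbi (also called acyl-CoA-binding protein) binds the activated form, and Acbd3 is a Golgi protein of the acyl-CoA-binding domain family.

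The array measures each gene with probes of 60 bases, and the members the results turn on are shown here by the sequence that was measured. Probes are printed 5′ to 3′ in lower case as the array files give them, with no part in capitals; for Slc27a2 probe A_43_P12655 and for Acsl3 the first 30 bases are shown. Probe ends that lie more than 60 bases apart in the genome span at least 1 intron.
Fabp1 A_44_P427596: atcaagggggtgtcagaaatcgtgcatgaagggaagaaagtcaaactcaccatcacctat
Cd36 A_44_P297175: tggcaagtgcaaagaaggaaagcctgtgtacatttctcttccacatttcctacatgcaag
Slc27a2 A_44_P997755: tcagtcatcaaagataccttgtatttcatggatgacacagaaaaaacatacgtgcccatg
Slc27a2 A_43_P12655: tttcaatgtgcacctgccatttgtccttgc
Acsl1 A_44_P172489: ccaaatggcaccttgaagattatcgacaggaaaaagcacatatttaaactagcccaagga
Acsl1 A_44_P505025: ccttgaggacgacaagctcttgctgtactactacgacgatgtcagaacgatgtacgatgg
Acsl3 A_43_P13029: tttgctttggcatctatgactgtgtttgtc
Acsl5 A_42_P528844: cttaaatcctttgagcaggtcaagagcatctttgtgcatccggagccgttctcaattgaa
Dbi A_44_P141377: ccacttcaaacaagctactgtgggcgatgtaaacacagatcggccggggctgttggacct

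The positions, in build rn4 from the files' annotation, are chr4:104413796-104413855 for Fabp1 A_44_P427596, chr4:13518295-13519542 for Cd36 A_44_P297175, chr3:114113856-114113915 for Slc27a2 A_44_P997755, chr3:114114177-114114236 for Slc27a2 A_43_P12655, chr16:49041922-49042659 for Acsl1 A_44_P172489, chr16:49069506-49069565 for Acsl1 A_44_P505025, chr9:78106570-78106629 for Acsl3 A_43_P13029, chr1:261597606-261598138 for Acsl5 A_42_P528844 and chrUn:57511818-57516130 for Dbi A_44_P141377. The 4 probes of Acsl1 are spread over the gene, and no other probe on the array shares a run of 30 bases with any of the 17. Several probes of 1 gene read the same RNA of the same rats, so they check one another's hybridization and do not add replicates.

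Values are log2 of the processed signal after quantile normalization, which gives every array the same distribution, and a difference between groups is a log2 fold change with its standard error. Of the 17 probes, 16 passed the filter on dim probes (signal well above background in all 5 rats of some group) and were tested, which left all 10 genes in the test. The second Slc27a2 probe, A_44_P997755, was well above background on 7 arrays and is given by its values. On single arrays between 66.7% and 74.8% of all probes were well above background. The arrays lay on 4 slides. Of these, 1 held Wistar and GK-Sham-PF rats, 1 held rats of both GK groups and the other two held 1 group each. Dimmer arrays were those of GK-Sham-PF replicate 5 and Wistar replicate 3, with a 75th percentile of the processed signal of 208 and 207 against 302 to 357 on the other arrays. The 11 enterocyte markers tested (of 12 listed, among them Vil1, Alpi and Apoa4) were measured in every group, with a summed signal of 721497 to 868970 in Wistar, 698377 to 860508 in GK-Sham-PF and 694060 to 833732 in GK-S-30. In a whole piece of intestine, fewer cells of a type and less RNA in each of them cannot be told apart.

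Between the bypassed (GK-S-30) and the sham-operated (GK-Sham-PF) GK rats, 5 of the 16 tested probes passed the test (limma, adjusted p under 0.05), all of them higher in GK-S-30: the 4 probes of Acsl1 and the probe of Acsl3. Among all 17028 tested probes, 8.36% passed, and 4.77% passed as higher in GK-S-30. The 5 passing probes stand for 2 of the 10 genes. The median log2 fold change of the 16 probes was -0.09, against -0.02 for all tested probes. Between GK-Sham-PF and Wistar rats 1 probe passed, for Slc27a2, which was lower in GK-Sham-PF, where 7.88% of all tested probes passed and 4.14% passed as lower. Between GK-S-30 and Wistar rats 5 probes passed, against 24.1% of all tested probes: 2 of Acsl1 and Acsl3 were higher, Slc27a2 and Fabp2 lower. Any pair of these comparisons shares the arrays of 1 group.

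**Figure D1:**
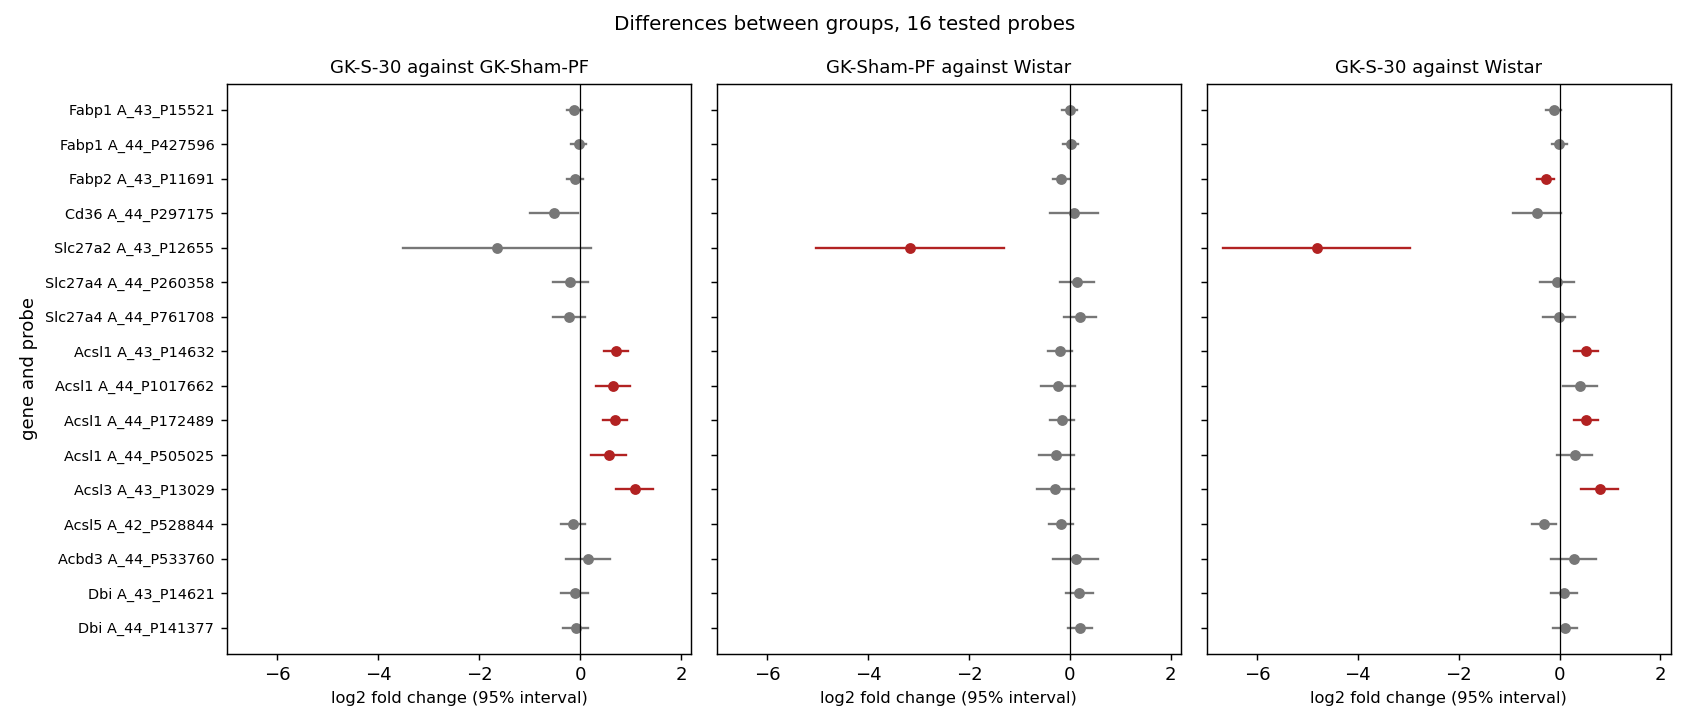
Log2 fold change (x axis) of each tested probe (y axis) in the 3 comparisons, with 95% intervals from the limma model; red marks an adjusted p under 0.05. In the left panel the 4 Acsl1 probes and Acsl3 lie to the right of 0, from 0.57 to 1.08, and the wide interval is that of Slc27a2, which reaches from -3.50 to 0.22.

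Acsl3, an acyl-CoA synthetase of the endoplasmic reticulum and lipid droplets, had the largest rise among the members after bypass. Its log2 signals were 11.88, 11.37, 11.49, 11.43 and 11.45 in the 5 GK-S-30 rats and 10.71, 10.57, 10.54, 10.27 and 10.11 in the 5 GK-Sham-PF rats. Wistar rats gave 10.78, 10.69, 10.11, 10.88 and 11.18. Every GK-S-30 rat was above every rat of both other groups, and GK-Sham-PF and Wistar rats overlapped. Acsl3 was 2.12-fold higher after bypass than after sham operation (log2 fold change 1.08 ± 0.17, SE, n = 5 each, limma adjusted p = 0.00153). It was 1.74-fold higher than in Wistar rats (0.80 ± 0.17, limma adjusted p = 0.00392), a call that was lost with the slide as a fixed block (0.175). Without Wistar replicate 3 the difference from Wistar was 0.64 and passed (limma adjusted p = 0.00564). The difference between GK-Sham-PF and Wistar did not pass (-0.29 ± 0.17, limma adjusted p = 0.409).

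Acsl1, a long-chain acyl-CoA synthetase of mitochondria and endoplasmic reticulum, rose on all 4 probes. Probe A_43_P14632 gave log2 signals of 12.69, 13.002, 12.56, 12.44 and 12.87 in GK-S-30 rats and of 11.89, 12.03, 12.14, 11.97 and 11.97 in GK-Sham-PF rats. Wistar rats gave 12.37, 12.07, 12.07, 12.27 and 12.20 and overlapped the GK-Sham-PF rats. The GK-S-30 rats were above all rats of the other groups on this probe. The rise over GK-Sham-PF was 1.64-fold (log2 fold change 0.71 ± 0.11, limma adjusted p = 0.00106).

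The other 3 Acsl1 probes gave the same direction with nearly the same size. Probe A_44_P172489 differed by 0.69 ± 0.11 on the log2 scale (limma adjusted p = 0.00176), A_44_P1017662 by 0.65 ± 0.16 (0.0199) and A_44_P505025 by 0.57 ± 0.17 (0.0459). The GK groups did not overlap on 3 of the 4 probes. On A_44_P1017662, GK-S-30 replicate 4 stood at 10.03 while the other GK-S-30 rats stood at 10.701 to 10.76, and GK-Sham-PF rats reached 10.13. The same rat was the lowest of its group on A_43_P14632 and on A_44_P172489, at 12.44 and 7.56. Against Wistar rats, A_43_P14632 (0.52 ± 0.11, limma adjusted p = 0.00303) and A_44_P172489 (0.53 ± 0.11, 0.00311) passed, and A_44_P1017662 (0.41 ± 0.16, 0.0698) and A_44_P505025 (0.30 ± 0.17, 0.207) did not. With the slide as a fixed block neither of the former passed (limma adjusted p = 0.380 and 0.455). All 4 probes were lower in GK-Sham-PF than in Wistar by 0.16 to 0.27 on the log2 scale, and none of these differences passed.

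**Figure D2:**
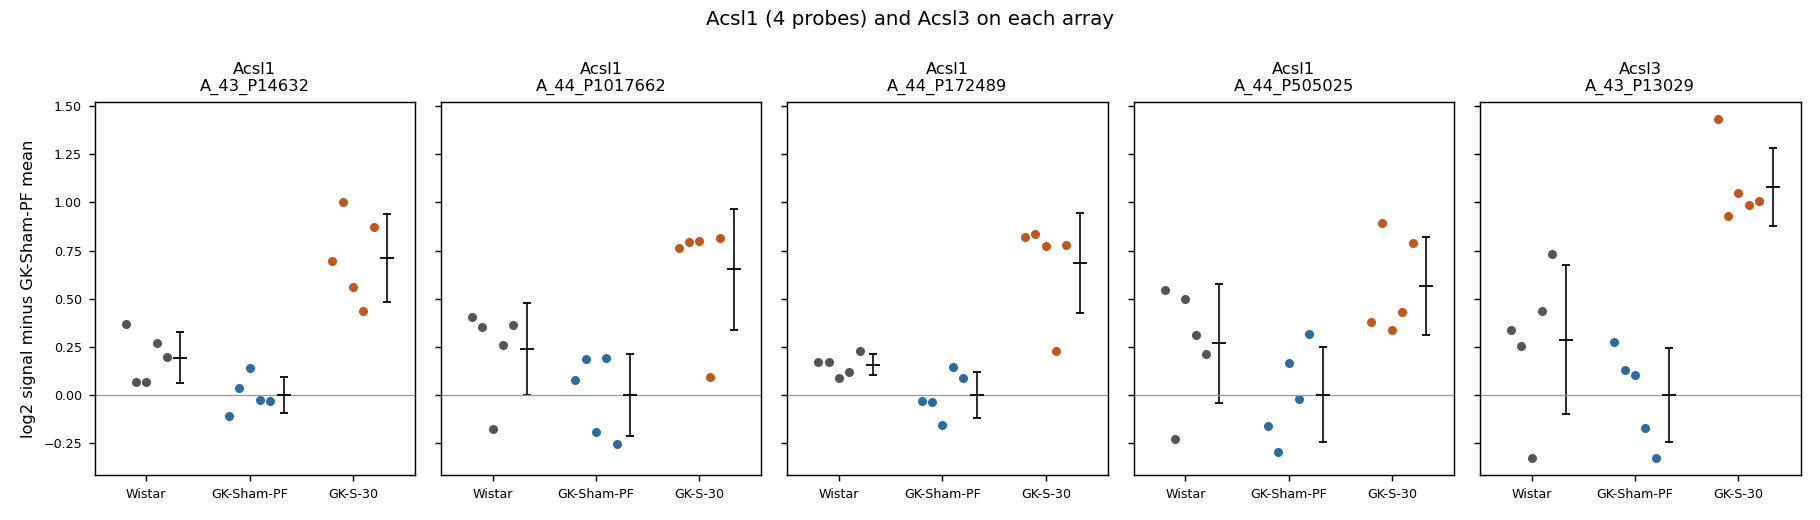
Log2 signal of each rat minus the mean of the GK-Sham-PF rats (y axis) for the 4 Acsl1 probes and Acsl3, by group (x axis); within a group, replicates 1 to 5 run from left to right, and the bar gives mean and SD (n = 5). GK-S-30 means lie 0.57 to 1.08 above GK-Sham-PF, and GK-S-30 replicate 4 lies apart from its group on A_44_P1017662 and A_44_P172489.

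Within the slide that held both GK groups (2 rats each), Acsl3 was 1.43 and Acsl1 probe A_43_P14632 was 0.88 higher in GK-S-30 on the log2 scale, with no test. With the slide as a fixed block both passed (limma adjusted p = 0.0210 and 0.0238). The other 3 Acsl1 probes kept their direction under the block but did not pass, at 0.71, 0.81 and 0.49 for A_44_P172489, A_44_P1017662 and A_44_P505025 (limma adjusted p = 0.0616, 0.146 and 0.384). The call of A_44_P505025 held in only 4 of the 15 fits that left out 1 rat, with a largest limma adjusted p of 0.114 without GK-Sham-PF replicate 2. That of A_44_P1017662 was lost without GK-S-30 replicate 5 (limma adjusted p = 0.0510).

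Markers of smooth muscle moved with the same groups. Of the 7 tested, 4 rose after bypass against sham operation (Actg2, Des, Tagln and Cnn1). In that comparison 8.36% of all tested probes passed, and 4.77% passed as higher. The median log2 fold change over the 7 muscle markers was 1.45. Their summed signal was 84161 to 108802 in GK-S-30, 21572 to 48824 in GK-Sham-PF and 24553 to 43249 in Wistar rats. The part of muscle in the rises of Acsl1 and Acsl3 was not tested.

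Acsl5, the other long-chain synthetase measured, passed in no comparison. Its log2 signals were 15.69 to 16.03 in GK-S-30, 15.76 to 16.14 in GK-Sham-PF and 15.76 to 16.28 in Wistar rats, and all 3 groups overlapped. The log2 fold change between the GK groups was -0.13 (95% interval -0.37 to 0.10, limma adjusted p = 0.542). That interval does not reach the lower ends of the intervals of Acsl3 (0.71) and of Acsl1 probe A_43_P14632 (0.48); the difference between genes was not tested. Against Wistar rats Acsl5 was at -0.30 ± 0.11 (limma adjusted p = 0.0592), and without Wistar replicate 3 it passed, at -0.39 (0.0109).

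Slc27a2, which is best known as the very long-chain synthetase and transporter of liver and kidney, differed most between GK and Wistar rats among the 16 tested probes, with the widest spread. Probe A_43_P12655 gave log2 signals of 10.67, 7.41, 6.24, 11.87 and 11.55 in Wistar replicates 1 to 5. In GK-Sham-PF rats the values were 5.64, 5.72, 6.84, 6.60 and 7.08, and in GK-S-30 rats 4.45, 5.36, 4.86, 4.22 and 4.78. Wistar rats thus fell on both sides of a gap of more than 3 log2 units, with replicates 2 and 3 near the GK-Sham-PF rats. Wistar replicate 3 was read on 1 of the 2 dimmer arrays, and replicate 2 was not. Every GK-S-30 rat was below every rat of the other groups.

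The log2 fold change of Slc27a2 in GK-Sham-PF against Wistar was -3.17 ± 0.87 (9.01-fold lower, limma adjusted p = 0.0363), with arrays that overlapped. In GK-S-30 against Wistar it was -4.82 ± 0.87 (28.2-fold lower, limma adjusted p = 9.92e-04), without overlap, and it ranged from -5.64 without Wistar replicate 3 to -4.23 without Wistar replicate 4. Between the GK groups it was -1.64 ± 0.87 and did not pass (limma adjusted p = 0.290) although the rats did not overlap. The spread of this model includes the Wistar rats, and with only the 2 GK groups in the fit the same difference passed (limma adjusted p = 0.0112). The call of GK-Sham-PF against Wistar was lost on leaving out any of Wistar replicates 1, 4 or 5 or of GK-Sham-PF replicates 1 to 4, with a largest limma adjusted p of 0.0976 without Wistar replicate 5. Its log2 fold change ranged from -4.00 without Wistar replicate 3 to -2.59 without Wistar replicate 4. Within the slide that held both groups the difference was -4.60 (3 GK-Sham-PF rats and 1 Wistar rat, no test). With the slide as a block neither difference from Wistar passed (limma adjusted p = 0.370 for GK-Sham-PF and 0.195 for GK-S-30).

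The second Slc27a2 probe, which reads another stretch of the same transcript, ordered the Wistar rats the same way. A_44_P997755 gave 8.14, 4.87, 2.87, 9.32 and 9.05 in Wistar replicates 1 to 5, so the 3 rats that were high on the first probe were high on the second. It was well above background in 4 Wistar rats, in 3 GK-Sham-PF rats and in no GK-S-30 rat. The GK groups overlapped on this probe, at 2.47 to 4.64 in GK-Sham-PF and 1.97 to 3.71 in GK-S-30 rats. With no filter on dim probes, the difference between the GK groups was -0.44 ± 1.04 (limma adjusted p = 0.870). That of GK-Sham-PF from Wistar was -3.37 ± 1.04 (limma adjusted p = 0.0835), and that of GK-S-30 from Wistar -3.81 ± 1.04 (limma adjusted p = 0.0210). The Wistar mean of 6.85 was 9.92-fold higher than a floor for GK-S-30. On each array the floor was the higher of the probe's own signal and the lowest signal among probes well above background. This floor is lenient, since GK-S-30 replicate 5 was at 3.71 and still not well above background, so the fold is not a lower limit. The Wistar mean also includes replicate 3, which was not well above background.

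**Figure D3:**
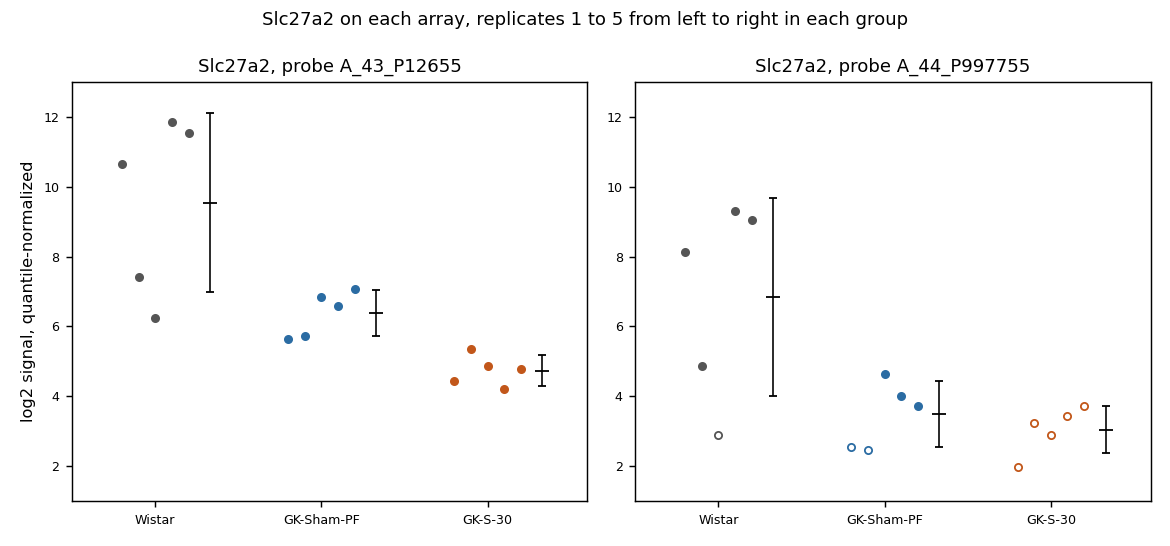
Log2 signal of both Slc27a2 probes (y axis) in each rat by group (x axis); filled points are well above background, open points are not, and bars give mean and SD (n = 5). On both probes Wistar replicates 2 and 3 lie below the other three, and all 5 GK-S-30 points of the right panel are open.

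Genes whose profile over the 15 arrays lay nearest to that of Slc27a2, by the root mean square difference of mean-centred log2 signals, were Aldh8a1 (1.19), Fmo1 (1.24) and Ugt2b15 (1.42), an aldehyde dehydrogenase, a flavin monooxygenase and a glucuronosyltransferase. Aldh8a1 stood at 6.52, 5.02, 4.24, 6.45 and 6.43 in Wistar replicates 1 to 5, with replicates 2 and 3 lowest as for Slc27a2 but another order among the other three. Fmo1, at 9.41, 9.37, 8.50, 10.14 and 9.74, ordered the 5 Wistar rats as Slc27a2 did, over a narrower range. Ugt2b15 lay between 8.88 and 9.56 in Wistar rats. Replicate 3, read on a dimmer array, was the lowest Wistar rat for each of these genes and for Slc27a2. The genes nearest to Acsl3 were Asap1 (0.21), Pmvk (0.23) and Inpp5a (0.24), of which Pmvk encodes an enzyme of cholesterol synthesis. These are descriptions over 15 arrays that share group differences.

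Cd36 differed between groups in spread more than in level. Its log2 signals were 10.49 to 10.65 in Wistar and 10.57 to 10.73 in GK-Sham-PF rats, and 9.29, 10.42, 11.05, 10.01 and 9.83 in GK-S-30 rats. Of the GK-S-30 rats, 4 were below every rat of the other groups and 1, replicate 3, was above all of them, a 3.39-fold range within the group. The value on each array is the mean of 10 spots. The SD was 0.067 in both control groups and 0.66 in GK-S-30. The ratio of 9.84 between the last and the larger of the others was the highest among 17001 tested probes, whose median ratio was 0.82. This measure was chosen after the values were seen and carries no test. Averaging 10 spots lowers measurement noise, and each other member probe has 1 spot, so the ranking is not between probes measured alike. The mean difference from GK-Sham-PF was -0.52 ± 0.23 on the log2 scale and did not pass (limma adjusted p = 0.183). Without GK-S-30 replicate 3 it passed at -0.75 (limma adjusted p = 0.0132), and without replicate 1 it was -0.31 (0.369).

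Cd36 is also made by adipocytes, endothelium and macrophages. The summed signal of 5 adipocyte markers tested was 4521 to 8801 in GK-S-30, 5718 to 13996 in GK-Sham-PF and 4921 to 12762 in Wistar rats, and that of 7 endothelial markers 2273 to 2598, 2273 to 3213 and 2984 to 4347. That of 5 macrophage markers was 1848 to 2364, 2260 to 2786 and 2385 to 3640, and 3 of these 5 passed as lower in GK-S-30 against Wistar. Among all tested probes 24.1% passed in that comparison, in either direction. The mean log2 signals of the 7 endothelial markers overlapped, at 6.92 to 7.09 in GK-S-30, 6.66 to 7.21 in GK-Sham-PF and 6.88 to 7.19 in Wistar rats. Of these 7, 1 passed as higher and 1 as lower in GK-S-30 against Wistar, again beside 24.1% of all tested probes. In GK-S-30 replicates 1 to 5 the adipocyte sums were 4678, 8801, 4521, 4948 and 6086, beside Cd36 signals of 9.29, 10.42, 11.05, 10.01 and 9.83. The adipocyte genes Plin1 and Lep were not well above background throughout any group. The part of these cells in the Cd36 values was not tested.

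The cytosolic binding proteins Fabp1 and Fabp2 varied little between rats. Fabp1 gave log2 signals between 17.87 and 18.16 over all 15 rats and both probes. The difference between the GK groups was -0.11 on A_43_P15521 (95% interval -0.26 to 0.03) and -0.03 on A_44_P427596 (-0.17 to 0.12), and neither passed in any comparison. At this end of the scale quantile normalization leaves few possible values, so that the same number recurs on several arrays and differences are read from few distinct values. No spot was saturated.

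Fabp2 gave 18.06, 17.92, 17.92, 18.02 and 18.02 in Wistar rats, 17.68, 17.83, 17.92, 17.70 and 17.92 in GK-Sham-PF, and 17.66, 17.77, 17.72, 17.74 and 17.66 in GK-S-30 rats. The GK-S-30 rats were below all Wistar rats and overlapped the GK-Sham-PF rats. The difference from Wistar was small and passed (1.21-fold lower, log2 fold change -0.28 ± 0.08, limma adjusted p = 0.0160). It did not pass under scaling to the 75th percentile (-0.25, limma adjusted p = 0.226) or with the slide as a fixed block (-0.35, 0.469). The GK-Sham-PF difference from Wistar was -0.18 ± 0.08 (limma adjusted p = 0.199) and that of GK-S-30 from GK-Sham-PF -0.10 ± 0.08 (0.511).

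Slc27a4, the main fatty acid transport protein of the small intestine, passed in no comparison on either probe. A_44_P761708 ranged from 13.43 to 13.77 in GK-S-30, from 13.39 to 13.97 in GK-Sham-PF and from 13.07 to 13.82 in Wistar rats. The difference between the GK groups was -0.22 (95% interval -0.54 to 0.09) on this probe and -0.19 (-0.53 to 0.15) on A_44_P260358. Dbi likewise passed in none, with differences of -0.11 and -0.09 on its 2 probes and signals of 15.17 to 15.85 on A_43_P14621 and 14.43 to 15.02 on A_44_P141377 over all rats. Acbd3 stood at 9.09 to 9.43 on 13 arrays and at 8.27 and 8.37 on Wistar replicate 3 and GK-Sham-PF replicate 5, which are the dimmer arrays. Its differences were 0.16 ± 0.21 against GK-Sham-PF and 0.28 ± 0.21 against Wistar, and without the 2 dimmer arrays it did not pass either.

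**Figure D4:**
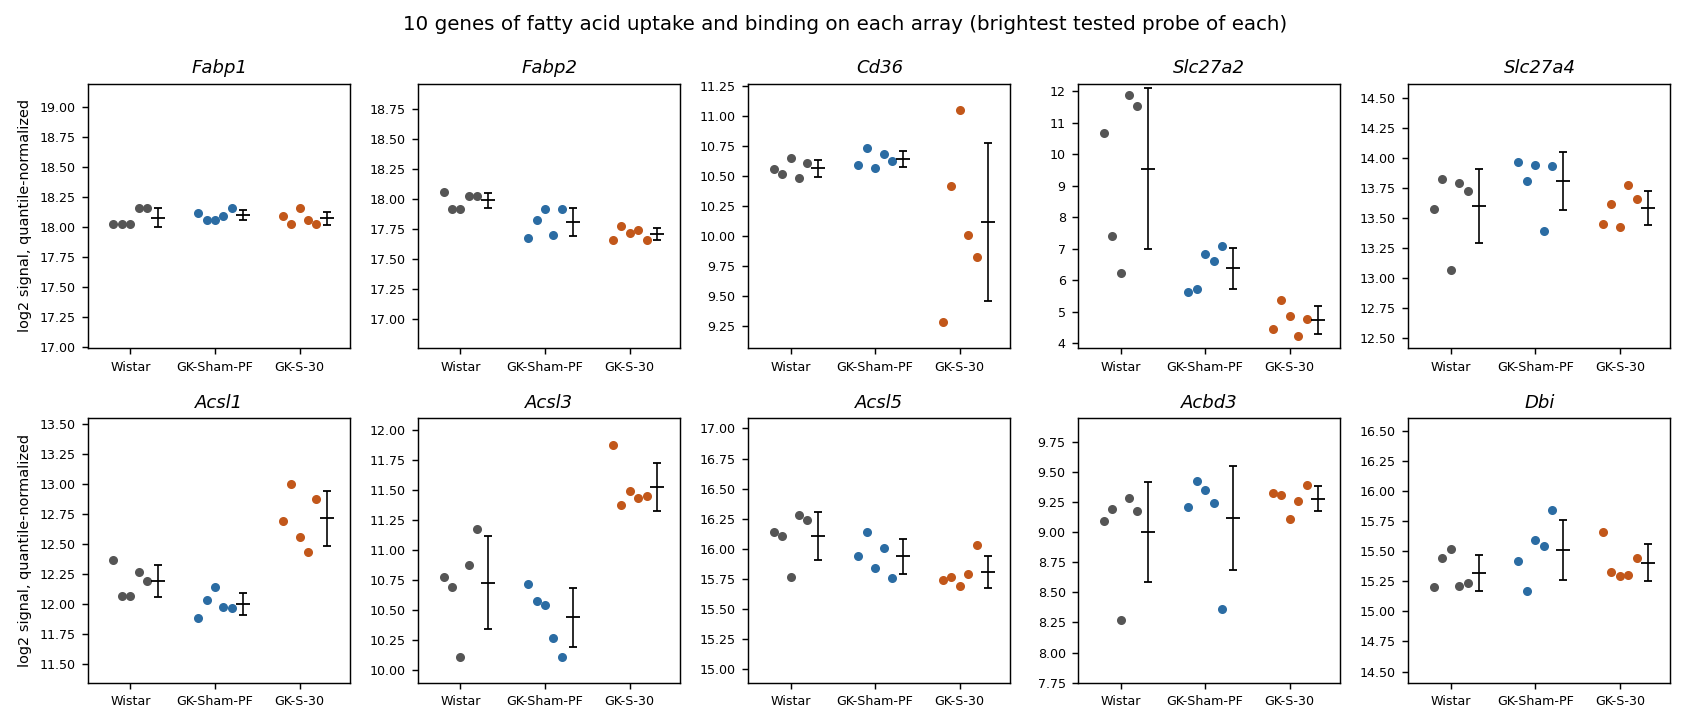
Log2 signal (y axis, own range in each panel, 2.2 units high except 8.4 for Slc27a2) of the brightest tested probe of each gene in the 15 rats by group (x axis), with mean and SD (n = 5); replicates 1 to 5 run from left to right. Acsl1 and Acsl3 are higher in GK-S-30, Cd36 is scattered from 9.29 to 11.05 there, Slc27a2 falls from Wistar to GK-S-30, and the low points of Acbd3 are those of the 2 dimmer arrays.

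Arrays of the GK groups did not overlap for 5 of the 16 probes (8.4% of all tested probes): Slc27a2, 3 of Acsl1 and Acsl3. None of the 16 separated GK-Sham-PF from Wistar (9.05% of all), and 4 separated GK-S-30 from Wistar (18.3% of all), namely Fabp2, Slc27a2, Acsl1 probe A_43_P14632 and Acsl3.

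Other carriers and binders of fatty acids were counted from a list of 20, of which 18 were tested. After bypass, against sham operation, 2 rose (Fabp5 and Fabp6), 1 fell (Fabp9) and 15 did not pass, where 8.36% of all tested probes passed. The median log2 fold change over the 18 was -0.11. Fabp6, the ileal bile acid-binding protein, was 3.27-fold higher (log2 fold change 1.71 ± 0.42, limma adjusted p = 0.0211), with signals of 8.30 to 10.32 in GK-S-30 and 7.19 to 9.32 in GK-Sham-PF rats, which overlapped. Fabp6 is also 1 of 4 ileal markers tested, of which 2 passed. The other that passed, the bile acid transporter Slc10a2, rose by 3.43 on the log2 scale over GK-Sham-PF. Its log2 fold change was -2.41 in GK-Sham-PF against Wistar and 1.02 in GK-S-30 against Wistar, and both passed. The remaining ileal markers tested, Slc51a (-0.19 ± 0.11) and Slc51b (0.37 ± 0.17), did not pass between the GK groups.

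In GK-Sham-PF against Wistar, where 7.88% of all tested probes passed, 2 genes of the same list rose (Fabp3 and Fabp9) and 3 fell. The largest fall was in Slc27a5, the bile acyl-CoA synthetase and close relative of Slc27a2, from 7.99 to 9.22 in Wistar rats to 4.07 to 4.62 in GK-Sham-PF rats (log2 fold change -4.42 ± 0.22, limma adjusted p = 1.62e-09). Unlike those of Slc27a2, its Wistar values lay together, at 8.80, 9.07, 8.76, 9.22 and 7.99. In GK-S-30 it stood at 3.15 to 4.05, which was -0.73 ± 0.22 from GK-Sham-PF (limma adjusted p = 0.0512). The second Slc27a2 probe, at 1.97 to 3.71 in GK-S-30, was not well above background there. The Slc27a5 values of GK rats lie near that range, so background may limit the size of both Slc27a5 differences. Scarb1, a receptor for lipoproteins and lipids, fell by 1.12 ± 0.21 (limma adjusted p = 0.00236) and Acbd4, an acyl-CoA-binding domain protein, by 1.00 ± 0.20 (0.00439). In GK-S-30 against Wistar, where 24.1% of all tested probes passed, 3 rose (Fabp3, Fabp6 and Acsl4) and 4 fell (Slc27a5, Slc27a6, Acbd4 and Scarb1).

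Downstream of activation, of 16 tested genes of triacylglycerol resynthesis, 1 rose, 1 fell and 14 did not pass between the GK groups, where 8.36% of all tested probes passed. The median log2 fold change over the 16 was 0.05. Dgat2, a diacylglycerol acyltransferase, fell from 14.15 to 14.87 in GK-Sham-PF to 13.64 to 13.97 in GK-S-30 (log2 fold change -0.65 ± 0.14, limma adjusted p = 0.0103) on the brightest of 3 probes that shared its sign. Lpin1, a phosphatidate phosphatase, rose by 0.65 ± 0.12 (limma adjusted p = 0.00315). Between GK-Sham-PF and Wistar, where 7.88% of all tested probes passed, none rose and 2 fell (Dgat2 and Plpp1). Between GK-S-30 and Wistar, where 24.1% passed, 2 rose (Agpat2 and Lpin1) and 5 fell (Dgat1, Dgat2, Agpat1, Plpp1 and Cideb). Of 8 acyl-CoA thioesterases tested, which undo the reaction of the synthetases, none passed in limma between the GK groups, where 7 of the 8 had a negative log2 fold change (median -0.28), and 1, Acot13, was lower in both GK groups than in Wistar.

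Of 19 sensors and regulators of fatty acid handling tested, 2 rose and 1 fell between the GK groups, where 8.36% of all tested probes passed. The median log2 fold change over the 19 was 0.13. Insig1, which retains the SREBP precursors in the endoplasmic reticulum, was at 15.31 to 15.69 in GK-S-30 and 13.27 to 13.89 in GK-Sham-PF rats (log2 fold change 1.76 ± 0.14, limma adjusted p = 6.82e-06). Ffar3, a receptor for short-chain fatty acids, rose by 1.23 ± 0.25 (limma adjusted p = 0.00693). The gene that fell was Creb3l3, at -0.44 ± 0.12 (limma adjusted p = 0.0347). Between GK-Sham-PF and Wistar, where 7.88% of all tested probes passed, none rose and 2 fell (Ffar2 and Srebf1). Between GK-S-30 and Wistar, where 24.1% passed, 2 rose (Ffar3 and Insig1) and 4 fell (Ffar2, Ppara, Creb3l3 and Srebf1).

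The 250 bases before a transcription start are shown for 4 of the genes (RefSeq, build GRCr8, gene strand, 5′ to 3′). A single RefSeq start was taken for each gene. Acsl1 and Acsl3, which rose after bypass, and Fabp1 and Slc27a2, which did not, were picked with their values known. A link between motifs and the rises was not tested. Capitals mark matches to 3 motifs: AGGTCA or TGACCT on either strand, the half-site of nuclear receptors, GATAAG or CTTATC, the core of GATA factors, and TATAAA on the gene strand only.
Fabp1: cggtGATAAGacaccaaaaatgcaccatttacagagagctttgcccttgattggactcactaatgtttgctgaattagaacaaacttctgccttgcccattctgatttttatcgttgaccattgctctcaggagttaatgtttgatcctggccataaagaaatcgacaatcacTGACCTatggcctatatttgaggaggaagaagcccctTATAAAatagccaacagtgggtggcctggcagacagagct
Slc27a2: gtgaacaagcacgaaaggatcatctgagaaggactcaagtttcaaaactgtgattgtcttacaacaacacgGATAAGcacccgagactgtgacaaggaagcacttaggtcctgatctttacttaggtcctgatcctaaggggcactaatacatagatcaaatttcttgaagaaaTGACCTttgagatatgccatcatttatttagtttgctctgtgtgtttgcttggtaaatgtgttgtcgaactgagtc
Acsl1: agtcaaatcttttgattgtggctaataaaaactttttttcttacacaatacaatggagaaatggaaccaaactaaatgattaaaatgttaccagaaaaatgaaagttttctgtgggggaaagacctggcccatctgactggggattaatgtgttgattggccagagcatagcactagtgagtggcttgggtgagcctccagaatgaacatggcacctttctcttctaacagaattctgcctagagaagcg
Acsl3: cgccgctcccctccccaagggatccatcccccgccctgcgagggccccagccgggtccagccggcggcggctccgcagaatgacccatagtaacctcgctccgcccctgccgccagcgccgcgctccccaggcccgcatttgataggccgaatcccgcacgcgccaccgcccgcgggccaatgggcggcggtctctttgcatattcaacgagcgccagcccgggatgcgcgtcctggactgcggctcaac

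The windows lie at chr4:104749090-104749339 (plus strand) for Fabp1, chr3:134257851-134258100 (plus strand) for Slc27a2, chr16:52532393-52532642 (minus strand) for Acsl1, chr9:87563351-87563600 (plus strand) for Acsl3. The half-site was in the windows of 3 of the 10 members, Fabp1, Slc27a2 and Acbd3, against 14.1% of 33469 RefSeq promoters of the same length. The GATA core was in those of Fabp1, Fabp2 and Slc27a2 (6.18% of all promoters) and TATAAA in those of Fabp1 and Acsl5 (8.06%). In Fabp1 the half-site began 77 bases and in Slc27a2 76 bases before the start. Neither Acsl1 nor Acsl3 held any of the 3 motifs, which says only that these letters are not in these windows. The window of Acsl3 was 72.4% G and C and that of Fabp1 43.2%.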

How the data were processed

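Total RNA of each rat was hybridized to 1 Agilent whole rat genome array, and the authors deposited the Feature Extraction (10.7.3.1) intensity values of each spot, background-subtracted and not normalized between arrays, and a matrix of quantile-normalized log2 values. Groups were read from the sample records. Control spots and outlier flags were left out, replicate spots were averaged, and log2 processed signals were quantile-normalized. Named probes well above background on all arrays of at least 1 group (17028) were fitted with limma 3.58.1 in R 4.3.3 over all 15 arrays (lmFit, contrasts.fit, eBayes), with Benjamini-Hochberg adjustment over all of them at 0.05, after a test on simulated data. No self-made list was tested. P-values measure the spread between rats. Quantile normalization hides a shift shared by most genes, and the number of arrays limits the precision.

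Members, lists and rules were chosen with earlier results of these data known. All member probes are reported, in full where they passed or disagreed. Named list genes had passed without overlap in some comparison (the 6 largest differences between the GK groups and the 3 largest between GK-Sham-PF and Wistar); other list genes named beside a count, and the markers, were named after their values were seen. Other markers (goblet cell, macrophage, blood, liver and pancreas, proximal intestine) are given with the alternatives. Alternatives were other scalings, filters, slide and replicate blocks, the methods' Tukey comparison and single arrays left out. Replicate numbers did not pair the rats.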

Additional observations from a re-analysis of the deposited data

Results flagged for a closer look

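In 9 of 51 sets of 5 rats (17 probes in 3 groups) the highest or lowest rat lay far from the others, with a gap to its neighbour above 0.71 of the range of the group, which chance alone gives in about 1 of 20 sets. Several of these sets share a gene or an array. For Acbd3 they were Wistar replicate 3, at a log2 signal of 8.27 against 9.09 for the next rat, and GK-Sham-PF replicate 5, at 8.37 against 9.21, which are the 2 dimmer arrays.

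For Acsl1, GK-S-30 replicate 4 was the low rat on probe A_44_P1017662 (10.03 against 10.701) and on A_44_P172489 (7.56 against 8.11), and Wistar replicate 3 was the low rat on A_44_P1017662 (9.76 against 10.20). GK-S-30 replicate 1 was the high rat for Acsl3 (11.88 against 11.49) and for Dbi probe A_44_P141377 (15.02 against 14.62). GK-S-30 replicate 5 was the high rat for Acsl5 (16.03 against 15.79), and GK-Sham-PF replicate 4 the low rat for Slc27a4 probe A_44_P761708 (13.39 against 13.81).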

How the results depend on the processing

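Of 672 recomputed fold changes of member probes, 636 stayed on the same side of the threshold, 22 no longer passed and 14 newly passed. None that passed changed its direction, and 21 that passed in neither setting changed sign. With single rats left out, only the fits with the lowest and the highest fold change of each probe entered this tally. Calls lost in other such fits, as for Acsl1 probe A_44_P1017662 without GK-S-30 replicate 5, are not in it. The tally includes the methods' Tukey comparison without adjustment over probes, which is a looser threshold. The count of 5 probes between the GK groups became 2 with the slide as a fixed block, 2 of 10 with 1 probe for each gene and 3 by the methods' Tukey comparison adjusted over all probes, and ranged from 3 (without GK-S-30 replicate 5) to 6 (without GK-S-30 replicate 3, which added Cd36) with single rats left out.

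The count of 1 between GK-Sham-PF and Wistar became 0 by limma with no filter on dim probes, with the slide block, with the replicate block and with only these 2 groups fitted (3, 1, 1 and 1 at an unadjusted p under 0.05), and 0 by the adjusted Tukey comparison (2 unadjusted). It was 2 with normexp background correction and by the unadjusted Tukey comparison. With single rats left out it ranged from 0 to 1, and was 0 without any of Wistar replicates 1, 4 and 5 or GK-Sham-PF replicates 1 to 4. The count of 5 between GK-S-30 and Wistar was 0 by limma with the slide block (2 unadjusted) and 5 to 6 with single rats left out.

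Same-numbered rats of 2 groups had deviations that correlated between -0.29 and 0.20, over 0.1 in 3 of 15 pairs, so the numbers were not read as a pairing. The replicate block gave 4, 0 and 4 member probes for the 3 comparisons in the order above. Over all 17028 probes the slide block passed 327, 210 and 268 in place of 1424, 1342 and 4101, and the adjusted Tukey comparison 565, 823 and 2688; unadjusted it passed 2563, 2370 and 4687. With unnamed probes included 1869, 2184 and 6352 passed. Between the GK groups 937 passed without GK-Sham-PF replicate 2 and 947 without replicate 1.

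Without both dimmer arrays, an alternative chosen after seeing the data, 5, 1 and 6 member probes passed, the added one being Acsl5 against Wistar (-0.39, limma adjusted p = 0.00632). GK-S-30 and Wistar rats shared no slide, and slides other than the 2 mixed ones held 1 group each, so slide and group are only partly separable. Fabp1 and Fabp2 lie where few log2 values are possible, and the second Slc27a2 probe is limited by its background.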

Other observations

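Further lists of cell type and region markers give the tissue in which the members were read. Among all tested probes, 8.36% passed between the GK groups and 7.88% between GK-Sham-PF and Wistar. Between the GK groups, 1 of 5 goblet cell markers was higher after bypass (Clca1), none of 5 macrophage, 5 adipocyte and 2 blood markers passed in limma, 1 of 7 endothelial markers rose (Vwf), 1 of 11 enterocyte markers fell (Mttp, by 0.34 on the log2 scale), and 1 of 4 markers of liver and pancreas rose (Apoh). Of 4 ileal markers 2 rose, Fabp6 and Slc10a2, and none of 5 markers of the proximal small intestine passed. Between GK-Sham-PF and Wistar 2 of 5 macrophage markers fell (Itgam and Mrc1), Slc10a2 fell by 2.41 on the log2 scale and Apoh rose by 1.27.

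The proximal markers were set beside Slc27a2 because its Wistar values were divided. Their summed signal in Wistar replicates 1 to 5 was 13525, 10505, 10154, 11697 and 17240, and the mean of their log2 signals 10.15, 10.13, 9.75, 10.38 and 10.18. In GK-Sham-PF rats the sums were 8654 to 18139 and in GK-S-30 rats 5532 to 9340, below every Wistar rat, while the mean log2 signals of GK-S-30 rats, 9.37 to 10.08, overlapped those of Wistar rats. Between the GK groups the median log2 fold change of the 5 was 0.19, with 3 of 5 above 0 and none passing in limma. In GK-S-30 against Wistar, where 24.1% of all tested probes passed, 1 of the 5, Cubn, passed as lower (log2 fold change -2.34). Their part in the Slc27a2 values was not tested.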
